A study of Mus musculus with 20 samples.

Results

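The 35 genes described here encode enzymes and carriers of fatty acid beta-oxidation, and were picked by gene symbol under a rule that used no measured value, though with earlier results of these data known, from the 29339 genes of a mouse heart RNA-seq table. They form 8 roles: 6 genes of the carnitine shuttle, 1 acyl-CoA synthetase, 2 genes of malonyl-CoA control, 8 acyl-CoA dehydrogenases, 7 hydratases, dehydrogenases and thiolases, 4 auxiliary isomerases and reductases, 3 genes of the electron transfer flavoprotein system and 4 peroxisomal genes. Each symbol occurred once in the table, and all 35 passed the filter on low counts in every comparison, with 40 to 35035 reads per gene and library.

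Beta-oxidation shortens fatty acids inside mitochondria and is the main source of ATP in the adult heart. Long-chain fatty acids are activated to acyl-CoA, cross the mitochondrial membranes as carnitine esters, and are then cut by repeated rounds of dehydrogenation, hydration, a second dehydrogenation and thiolysis. Electrons from the first step pass through the electron transfer flavoprotein to the respiratory chain, and malonyl-CoA holds back the entry step. Many of these genes are known targets of the nuclear receptors PPAR-alpha and ERR-alpha.

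Hearts came from C57BL/6 mice aged 8 weeks, and the 20 libraries were 5 labelled male WT (WT1, WT2, S7, S8 and S9), 5 labelled male KO (S10, S11, S12, TKO5 and TKO6), 3 labelled female WT (S1, S2 and S3) and 7 labelled female KO (S4, S5, S6 and TKO1 to TKO4). WT is wild type and KO is TECRL-/-, the loss of trans-2,3-enoyl-CoA reductase like, and no treatment is named for any group. The library names form 2 series, S with 12 libraries and WT/TKO with 8. No library labelled female WT belongs to the WT/TKO series, so with series as covariate the KO effect for female labels set S4, S5 and S6 against S1, S2 and S3. Libraries were made per mouse according to the methods of the study, which describe 3 mice per group. That is fewer than the libraries labelled male WT, male KO and female KO, and the origin of the further libraries is not stated. How the Tecrl allele was made is not given in the sources used here.

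Several libraries stood apart from their labels or from the others. Tecrl levels overlapped between the KO and WT labels, at 60.3 to 99.3 CPM (counts relative to library size, here after TMM scaling) for male KO against 51.9 to 122 for male WT, and at 70.3 to 95.2 for female KO against 75.4 to 85.1 for female WT. The summed level of 4 Y-linked genes, in CPM without TMM scaling as for all marker sums, was 0 CPM in the male-labelled S7, S8 and S9 and 179 to 211 CPM in the female-labelled S4, S5 and S6, so 6 libraries went against their sex label. Genotype and sex therefore mean the labels throughout, and in the S series Y-linked transcripts summed to at most 0.118 CPM under the WT label (6 libraries) and to at least 163 CPM under the KO label (6 libraries), so these cannot be told apart from the genotype label there. An exchange of labels between S4 to S6 and S7 to S9 would match the Y-linked levels and would also change the genotype of these 6 libraries. That would change each KO comparison given here, and the comparison of the library series, which has labelled group as covariate. Whether an exchange took place was not tested. The 7 atrial cardiomyocyte markers checked summed to 8939, 7161, 8112 and 2574 CPM in S7, S9, S11 and S12 and to at most 622 CPM elsewhere, with a median over libraries of 59.4 CPM. Ventricular markers, 10 of 10 above 0 in every library, summed to 49890 to 70720 CPM. S7 also held 1037 CPM of 6 white adipocyte markers, against at most 45.5 CPM elsewhere. Mitochondrial genes took 15.3% (S7) to 30.4% (S2) of the counts, and total counts ran from 12540002 to 20038593.

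The 35 genes covered a wide range of levels. On the length-scaled FPKM scale (fragments scaled by gene length and library size, as deposited), 10 genes had a 20-library mean above 100, led by Ech1 (652 ± 114, SD, n = 20), an isomerase for unsaturated chains, Acaa2 (560.2 ± 87.8), the mitochondrial 3-ketoacyl-CoA thiolase, and Acadl (539 ± 74.0), the long-chain acyl-CoA dehydrogenase. A further 6 genes were below 10, down to Acad10 (0.928 ± 0.423), an acyl-CoA dehydrogenase family member. Reads of overlapping genes limit 3 of these levels. Of the exon bases of Cpt1b, 81.4% overlap Gm44502 on the same strand, of Etfb 58.2% overlap Gm45233 and Mir7051 on the same strand, and of Acadvl 42.9% overlap Dvl2 on the opposite strand, while no other gene exceeded 9.9%. The FPKM of Cpt1b (3.31 ± 1.05) and Etfb (6.595 ± 2.33) are thus uncertain.

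Most members were low together in the same 6 libraries of the S series. A median over the 35 genes of the log2 deviation from each gene's own 20-library mean (TMM-scaled CPM + 0.5) was lowest in S9 (-0.61), S11 (-0.57), S7 (-0.41), S3 (-0.40), S12 (-0.39) and S2 (-0.21). It was highest in WT1 (0.53), and -0.0026 to 0.30 in the other 13 libraries. In S11, 33 of 35 members lay below their own 20-library median, in S7 32, in S9 and S12 30 each, in S2 29, in TKO4 28 and in S3 27, but the median deviation of TKO4 was only -0.0026. The share of all 15187 tested genes below their own median was 48.3% to 55.0% in every library. The 6 libraries with the lowest medians carried the labels male WT, male KO and female WT. S7, S9, S11 and S12 were the 4 libraries with atrial markers above 1000 CPM, while S2 and S3 had 59.2 and 71.9 CPM of them and the 2 highest mitochondrial shares of the S series (30.4% and 25.6%). The 5 lowest sums of ventricular markers were those of S2, S9, S11, S7 and S3 (49890 to 55050 CPM), while S12 had 61920 CPM. The sum of 6 fibroblast markers was 1221 to 1533 CPM in S7, S9, S11 and S12 and 1246 CPM in TKO4, against at most 1101 CPM elsewhere. The part of these markers or of the mitochondrial share in the low levels was not tested. In bulk tissue, fewer cells of a type and less RNA per cell cannot be told apart.

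**Figure D1:**
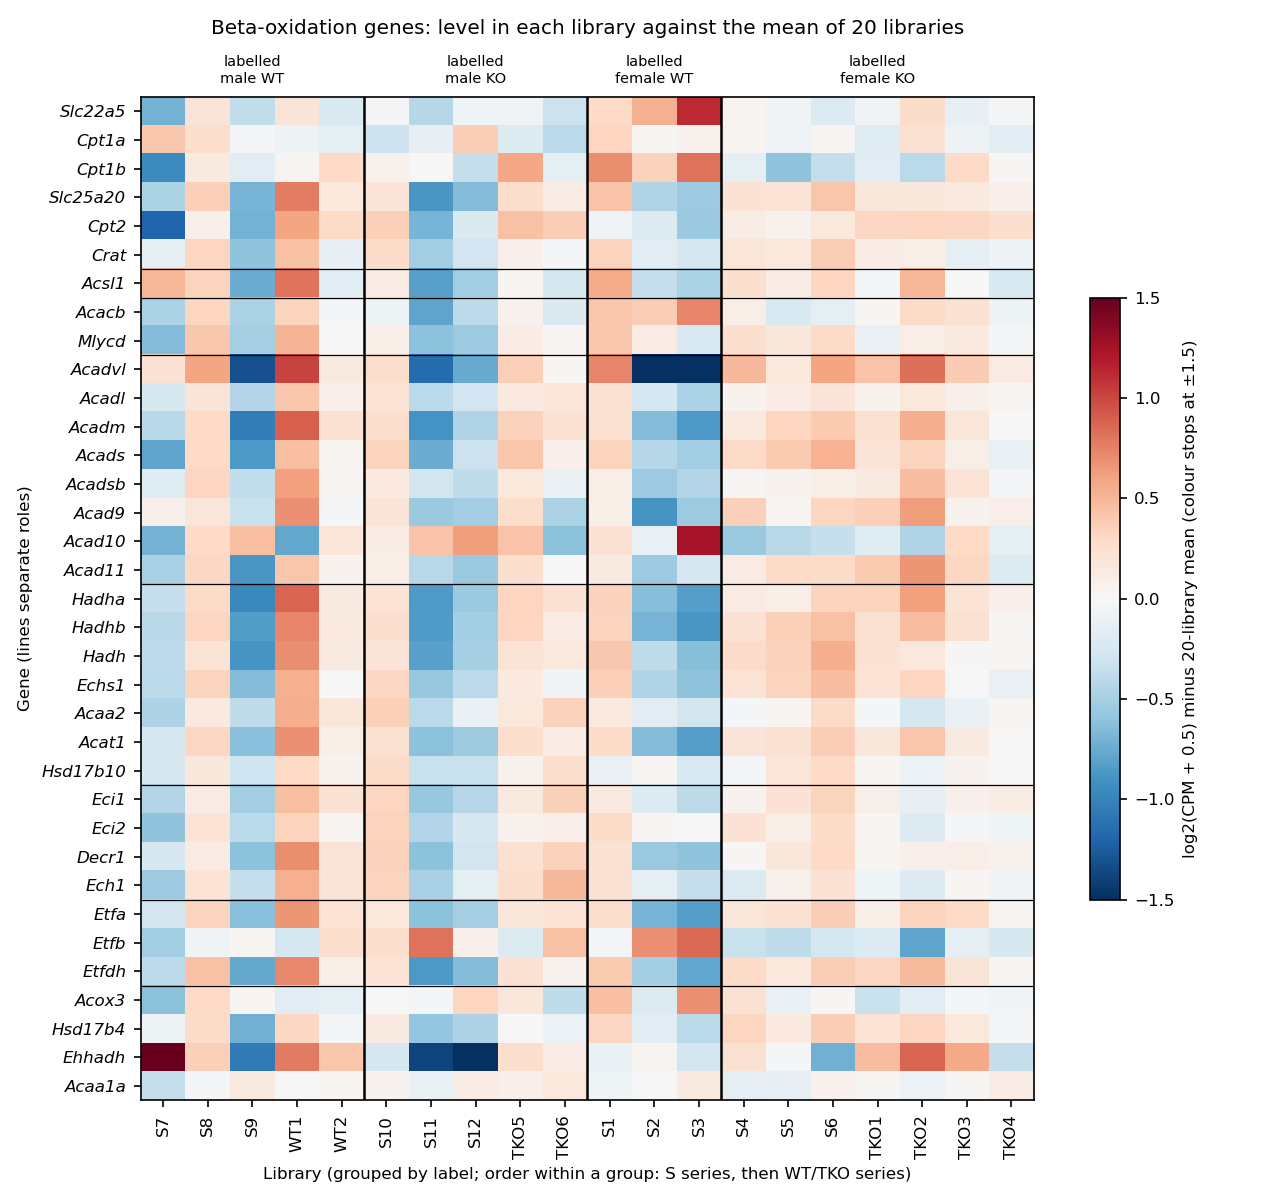
Heat map of the 35 genes (rows, ordered by role) in the 20 libraries (columns, by labelled group), coloured by log2(CPM + 0.5) minus the gene's mean over 20 libraries. S7, S9, S11, S12, S2 and S3 are blue for most genes and WT1 is red, while Slc22a5, Cpt1b, Acad10 and Etfb are red in S3.

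**Figure D2:**
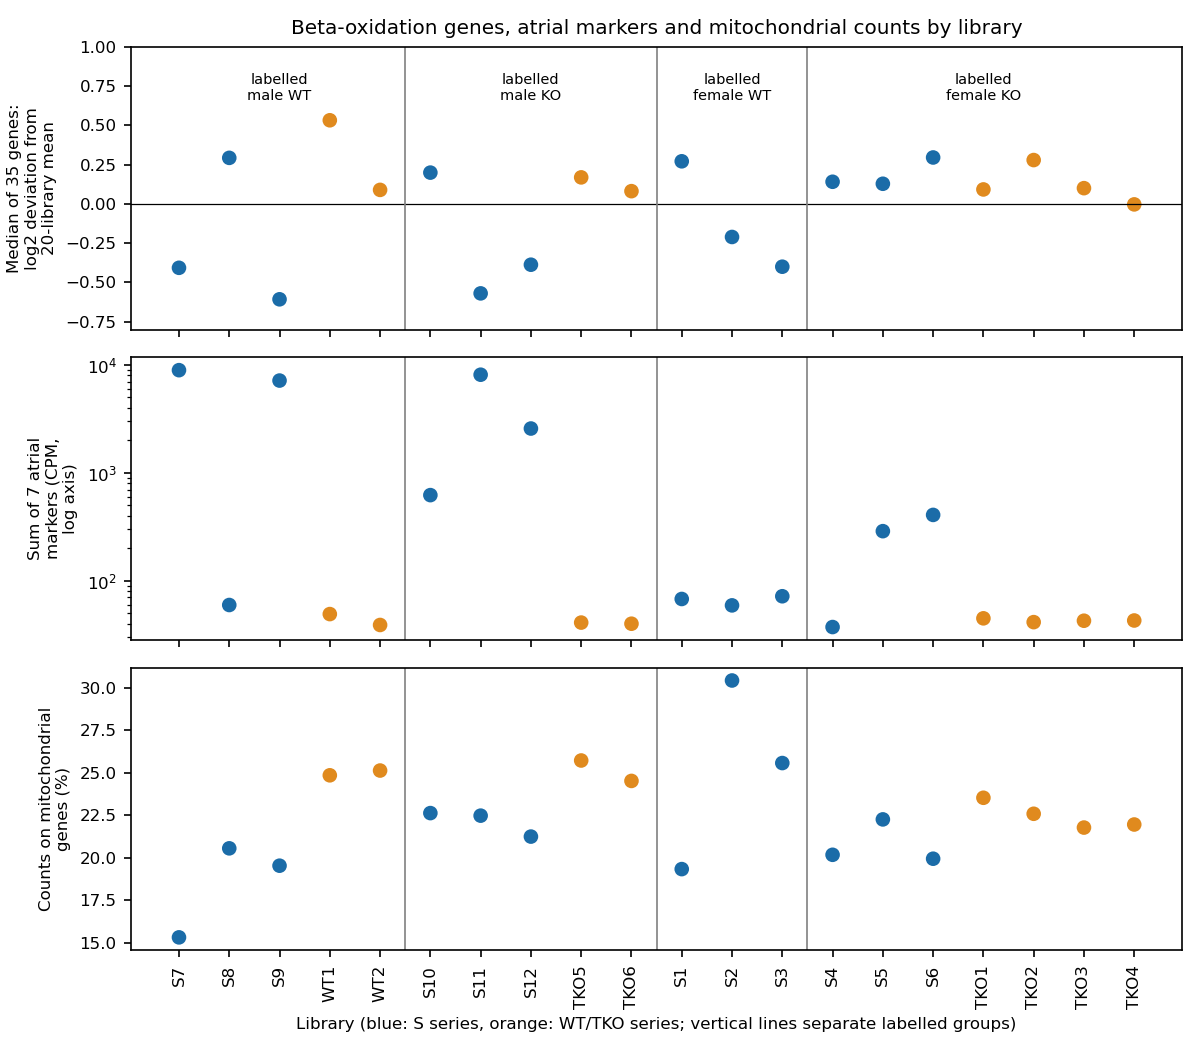
Each point is 1 library: top, the median log2 deviation of the 35 genes; middle, the summed CPM of 7 atrial markers on a log axis; bottom, the percent of counts on mitochondrial genes. The 4 libraries above 1000 CPM of atrial markers have medians of -0.61 to -0.39, and S2 and S3, at -0.21 and -0.40, have atrial sums below 100.

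Taken singly, the genotype and sex labels went with small median shares of the spread of single members. Alone, the genotype label accounted for a median of 4.80% of a member's variance (0.0587% to 16.05%). For the labelled sex it was 2.18% (0.0243% to 23.3%) and for the library series 15.8% (0.813% to 41.8%). The medians over all 15187 genes were 3.04%, 3.24% and 10.8%. Labelled group and series together accounted for 44.4% of a member's variance and 44.9% of that of all genes. Over the 20 libraries the median member spanned 2.85-fold and the median gene 2.38-fold, from 1.43-fold for Acaa1a, the peroxisomal thiolase, to 9.38-fold for Ehhadh, the peroxisomal bifunctional enzyme. These shares and ranges are descriptions. The shares are not adjusted for the number of groups, so labels set at random would also account for some variance.

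Below, a gene is called where its adjusted p was under 0.05 in edgeR with the filter on low counts and all libraries of the comparison, unless another tool, filter or set of libraries is named. The first comparison asked whether the enzymes differ with the KO label among libraries labelled male, with the library series as covariate. In edgeR (quasi-likelihood test, p-values adjusted after Benjamini and Hochberg), 0 of 35 members passed an adjusted p of 0.05 (0.0% of 14481 genes tested), and DESeq2 and limma also called 0. Without the filter on low counts edgeR called 1 member, Ehhadh, as lower (0.217% of 27220 genes). At an unadjusted p under 0.05 there was 1 member, Ehhadh, against 4.75% of all genes. The log2 fold change was negative for 25 members and positive for 10 (52.9% of all genes were negative), with a median of -0.11 against -0.01 over all genes. This direction rested on single libraries, since 23 members were positive without S8 (median 0.05, with 48.2% of all genes positive) and 19 without WT1 (median 0.02, with 48.7%), against 4 without S7 (50.6%). The labels overlapped for each of the 35 (they did not for 0.587% of all genes). By the thresholds of the study (p below 0.05 before adjustment, and a log2 difference of 0.58 or more in size), Ehhadh again was the 1 member past them (2.09% of all genes). Here and below these were applied to edgeR p-values with series as covariate unless another fit is named. The study used DESeq2, so the counts do not repeat its list.

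Among libraries labelled female, 0 of 35 members passed the adjusted threshold in edgeR (0.0551% of 14511 genes), while DESeq2 called 4 lower members, Slc22a5, Cpt1b, Acacb and Etfb (2.64% of genes by DESeq2), and limma on log2(FPKM + 1) called 0. Without a filter on low counts edgeR called 12 members (4.06% of 27319 genes). At an unadjusted p under 0.05, 11 members were higher (7.15% of all genes) and 5 were lower (10.7%). Positive log2 fold changes were found for 26 members, against 47.6% of all genes, with a median of 0.32 against -0.02. By the study's thresholds, 4 members were higher and 5 lower (9.99% of all genes in both directions). This picture rested on which WT libraries were used. Without S1, 25 members were called, 20 higher and 5 lower (16.8% of 14358 genes), with a median of 0.50. Leaving out S2 and S3, a choice made after the data were seen, left S1 as the only library labelled female WT. In that fit 9 members were positive (51.6% of all genes) and the median was -0.06. Since most members were low in S2 and S3, a lower KO effect without them follows from the choice, and values from this fit are descriptions only. TMM-scaled levels did not overlap between the labels for 5 members (4.96% of all genes), of which Cpt2 was higher and Etfb, Slc22a5, Acacb and Cpt1b lower in KO, but the FPKM of Acacb and Cpt1b overlapped.

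**Figure D3:**
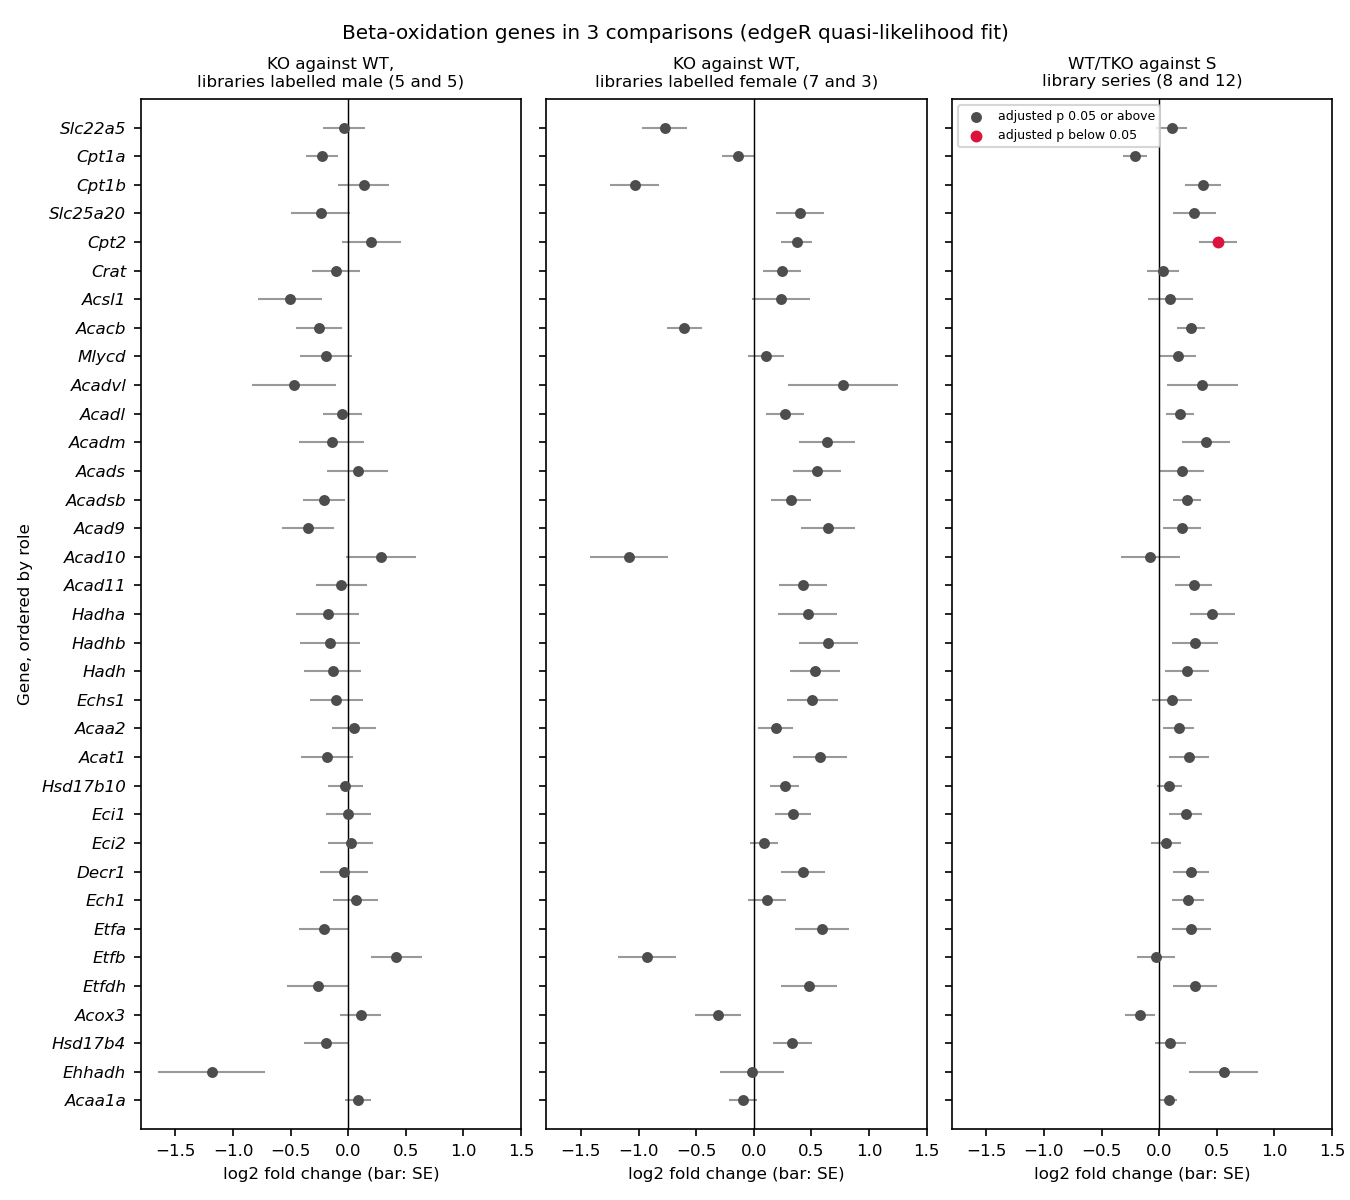
Log2 fold change of each of the 35 genes (points) with its standard error (bars) in 3 edgeR comparisons, labelled with the number of libraries on each side. Points lie on both sides of 0 for male labels, 26 of 35 lie above 0 for female labels, and 31 of 35 lie above 0 between the series, where Cpt2 in red is the 1 gene past the adjusted threshold.

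The male minus female difference of the KO effect was tested in 1 fit of all 20 libraries. It was called for 0 of 35 members by edgeR (0.0% of 15187 genes) and by DESeq2, and without the filter on low counts edgeR called 2, Cpt1b and Etfb (0.44% of 29339 genes). Before adjustment, 5 members had an unadjusted p under 0.05 (15.6% of all genes). Without S1 it was called for 5 members, Slc22a5, Cpt1b, Acadvl, Acad9 and Etfb (7.45% of 15120 genes). The median difference was -0.22, with 24 members negative (50.3% of all genes), and 0.15 without S2 and S3. Over all 20 libraries with labelled sex and series as covariates, the KO label gave a median log2 fold change of 0.01 with 19 members positive (47.2% of all genes) and 0 called by edgeR, DESeq2 or limma (0.0% of 15187 genes), and 3 at an unadjusted p under 0.05, all lower (2.82% of all genes). Without S4 to S9, the 6 libraries that went against their sex label, 33 members were negative and 2 positive (51.9% of all genes were negative), with a median of -0.16. In that fit 0 members were called (0.0882% of 14747 genes) and 5 had an unadjusted p under 0.05 (6.77%). With single libraries left out, 6 (without S10) to 25 members (without WT1, S8, S11 or S1) were positive.

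The WT/TKO and S series were compared with labelled group as covariate, so that only the 3 labelled groups holding both series, all but female WT, bear on the difference. Of the members, 31 were higher in the WT/TKO libraries (50.0% of all genes), with a median log2 fold change of 0.23 against 0.00, but only Cpt2 passed the adjusted threshold in edgeR, against 14.7% of 15187 genes. Before adjustment, 4 members had a p under 0.05, against 31.1%. Leaving out S7, S9, S11 and S12, the libraries with atrial markers, lowered the median to -0.03 with 12 members positive (51.6% of all genes), and using the log2 atrial marker sum as a covariate gave -0.18 with 5 positive (52.8% of all genes). Both fits were chosen after the data were seen, and both called 0 members. Within the KO libraries alone, 6 of each series, the median was 0.10 with 29 positive (50.9% of all genes) and 0 called, and no member's TMM-scaled levels kept the 2 series apart there (5.53% of all genes).

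**Figure D4:**
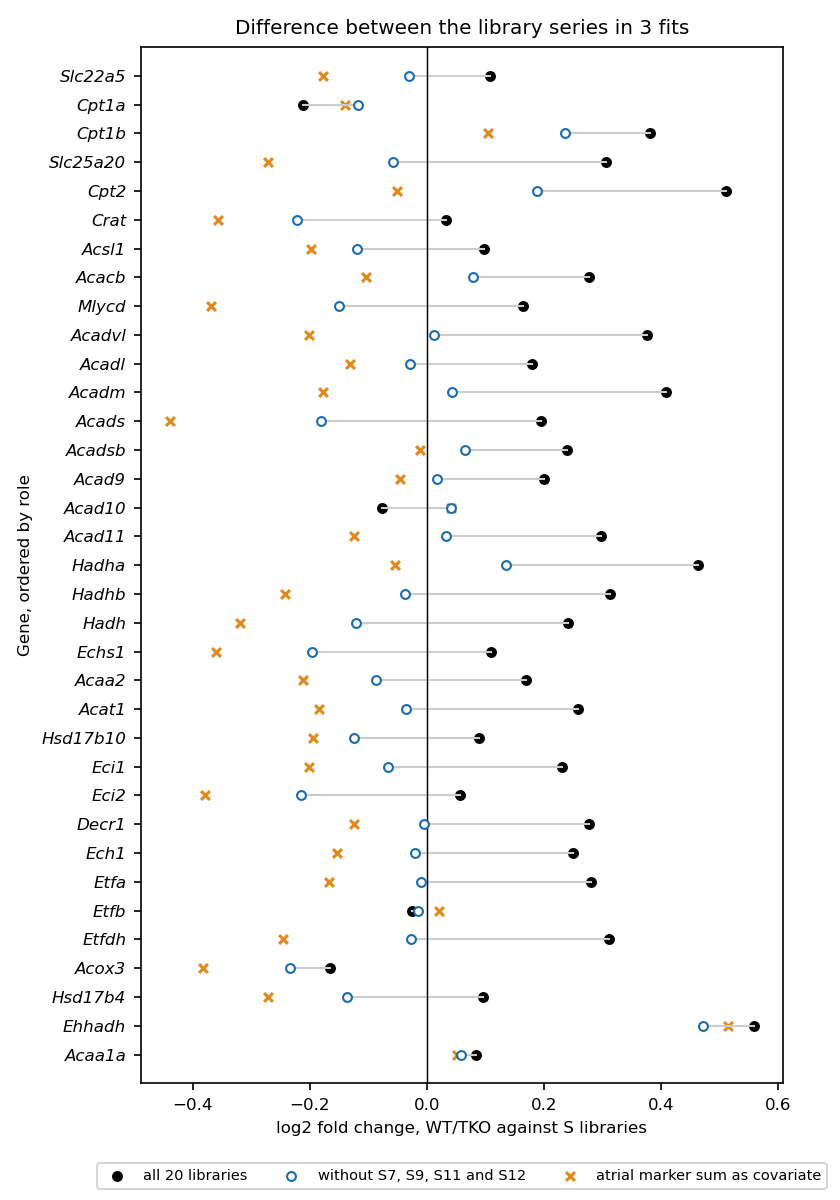
Log2 fold change of WT/TKO against S libraries for the 35 genes with all 20 libraries (black), without S7, S9, S11 and S12 (open blue) and with the atrial marker sum as covariate (orange crosses). Black points lie above 0 for 31 genes, open points for 12 and crosses for 5.

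Among the carnitine shuttle genes, Cpt2 was the 1 member of the whole set that edgeR called in any of the 5 comparisons with the filter on low counts and all their libraries. Cpt2, carnitine palmitoyltransferase 2 of the inner membrane, turns acylcarnitine back to acyl-CoA and lies on the minus strand of chromosome 4 of GRCm38 from 107903981 to 107923610 with no overlapping exon. The bases just upstream of its start are shown because it was the called member. They are from the RefSeq promoter set (GRCm38.p6), chr4:107923611-107923839 on the minus strand, 229 bases in 5′ to 3′ order and limited to sequence outside annotated exons, with 55.5% G or C.
Cpt2: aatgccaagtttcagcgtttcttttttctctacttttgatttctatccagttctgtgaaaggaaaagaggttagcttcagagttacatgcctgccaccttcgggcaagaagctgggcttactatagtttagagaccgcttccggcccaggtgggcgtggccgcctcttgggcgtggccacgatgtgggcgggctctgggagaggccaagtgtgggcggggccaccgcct
No copy of the motif AGGTCA, searched on both strands, lies in the Cpt2 window.

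Cpt2 had 110.5, 97.9, 39.8, 85.7 and 55.4 FPKM in WT1, WT2, S7, S8 and S9. The libraries S10, S11, S12, TKO5 and TKO6 had 103, 53.3, 77.8, 106 and 98.5 FPKM, and S1, S2 and S3 had 81.2, 64.7 and 57.5 FPKM. The 7 libraries labelled female KO had 85.3 to 105 FPKM with a median of 97.2. All 8 WT/TKO libraries had 97.2 to 110.5 FPKM, and of the S libraries only S10 reached that range. The series difference was 0.51 on the log2 scale (SE 0.16, adjusted p = 0.041, edgeR). It was 0.19 (adjusted p = 0.198) without S7, S9, S11 and S12, -0.05 (adjusted p = 0.914) with the atrial marker sum as covariate, and 0.33 (adjusted p = 0.141) within the KO libraries. Without S4 to S9 it was 0.50 (adjusted p = 0.325, edgeR). Of the 20 fits that left out 1 library, 10 kept the call. The KO label gave 0.20 (SE 0.26) for male and 0.37 (SE 0.14, adjusted p = 0.213) for female labels, the latter 0.17 without S2 and S3.

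Cpt1a and Cpt1b encode the liver and muscle forms of carnitine palmitoyltransferase 1, the step that malonyl-CoA inhibits. Cpt1a had 10.3, 10.8, 18.1, 14.6 and 13.4 FPKM in WT1, WT2, S7, S8 and S9 and 9.61, 11.8, 17.4, 10.2 and 8.56 FPKM in S10, S11, S12, TKO5 and TKO6. In S1, S2 and S3 it had 15.7, 11.3 and 13.3 FPKM, and 10.6 to 13.6 FPKM (median 11.9) in the 7 female KO libraries. Its highest values were in S7 and S12, which were low for most members, and the labels overlapped. The log2 fold change with the KO label was -0.23 (SE 0.14) for male and -0.14 (SE 0.14) for female labels, and its series difference was -0.21 (SE 0.10, adjusted p = 0.161).

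Cpt1b had 2.92, 3.84, 1.73, 3.45 and 3.09 FPKM in WT1, WT2, S7, S8 and S9 and 3.25, 3.34, 2.68, 4.61 and 2.68 FPKM in S10, S11, S12, TKO5 and TKO6. S1, S2 and S3 had 5.37, 3.71 and 5.88 FPKM, and the 7 female KO libraries 2.02 to 4.03 FPKM (median 2.75). S1 and S3 were the highest of all 20 libraries. The female difference of -1.03 (SE 0.21, adjusted p = 0.098, edgeR) had the smallest adjusted p of any member with the KO label, and was -0.92 to -1.16 when single libraries were left out. For male labels it was 0.13 (SE 0.22).

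The mean log2 ratio of Cpt1b to Cpt1a, from TMM-scaled counts per length, was -2.18 ± 0.72 (SD, n = 5) for male WT, -1.78 ± 0.57 (n = 5) for male KO, -1.44 ± 0.24 (n = 3) for female WT and -2.13 ± 0.40 (n = 7) for female KO. Cpt1a thus had the higher value in every library, but the 2 forms cannot be ranked by these values. Of the exon bases of Cpt1b 81.4% overlap another gene, so reads there may be missing from its count. The short length given for Cpt1a (4300 bases, against 7642 in GENCODE) raises its value per length. Two-sided exact permutation tests within series gave KO minus WT differences of 0.40 for male (p = 0.283, adjusted p = 0.283) and -0.90 for female labels (p = 0.1, adjusted p = 0.15, where 0.1 is the smallest p the design allows). Between the series among KO libraries, exchanged within labelled sex, it was 0.48 (exact p = 0.0857, adjusted p = 0.15).

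Slc22a5, the plasma membrane carnitine transporter OCTN2, had 10.3, 8.38, 6.80, 11.4 and 8.58 FPKM in WT1, WT2, S7, S8 and S9 and 9.74, 7.81, 10.6, 9.27 and 7.49 FPKM in S10, S11, S12, TKO5 and TKO6. It had 12.8, 13.3 and 22.9 FPKM in S1, S2 and S3 and 8.64 to 11.6 FPKM (median 9.62) in female KO. All 3 female WT libraries lay above the female KO range, with S3 far above the rest. The female difference was -0.77 (SE 0.20, adjusted p = 0.144), -0.50 without S3 and -0.37 without S2 and S3, and the male one was -0.04 (SE 0.19). For female labels Slc22a5 was called by DESeq2 and, in edgeR, without S1 (-0.94). Slc25a20, the carnitine-acylcarnitine carrier, ranged from 23.0 (S11) to 61.2 FPKM (WT1), with no call with all libraries. The same held for Crat, carnitine acetyltransferase, from 51.3 (S9) to 91.4 FPKM (S1). Without S1 edgeR called both as higher for female labels (0.78 and 0.45).

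Acsl1, the main long-chain acyl-CoA synthetase of heart, had 86.1, 48.1, 86.1, 68.3 and 36.0 FPKM in WT1, WT2, S7, S8 and S9 and 58.6, 32.7, 41.8, 53.6 and 43.2 FPKM in S10, S11, S12, TKO5 and TKO6. In S1, S2 and S3 it had 83.2, 39.3 and 40.9 FPKM, and in female KO 47.9 to 73.2 FPKM (median 58.8). S7 stood with the highest libraries here, unlike for most members, and S7 was the library with white adipocyte markers. The KO label gave -0.51 (SE 0.28, adjusted p = 0.882) for male and 0.24 (SE 0.25) for female labels, the latter 0.63 without S1 and -0.33 without S2 and S3. Of the malonyl-CoA genes, Acacb, the acetyl-CoA carboxylase that makes malonyl-CoA at mitochondria, ranged from 19.9 (S11) to 56.4 FPKM (S3). It was lower in female KO by a log2 fold change of -0.60 (SE 0.15, adjusted p = 0.144, edgeR). DESeq2 called Acacb for female labels, as did edgeR without S1. Mlycd, malonyl-CoA decarboxylase, ranged from 33.2 (S11) to 66.4 FPKM (S1), with log2 fold changes of -0.19 and 0.11 for male and female labels. Both signs rested on single libraries, since the male value was 0.030 without S8 and the female value -0.040 without S3.

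Among the acyl-CoA dehydrogenases, Acadvl, the very-long-chain enzyme, spanned the most libraries apart: 192, 113, 136, 158 and 46.6 FPKM in WT1, WT2, S7, S8 and S9 and 124, 49.7, 68.5, 129.5 and 99.8 FPKM in S10, S11, S12, TKO5 and TKO6. S1 had 181 FPKM while S2 and S3 had 32.5 and 37.6 FPKM, and the 7 female KO libraries had 117 to 178 FPKM (median 141). Within 1 labelled group, female WT, the highest and lowest libraries differed by more than the means of any 2 groups. The female difference was 0.78 (SE 0.48, adjusted p = 0.409), 1.97 without S1, 0.41 without S2 and -0.31 without both S2 and S3, and the male one was -0.47 (SE 0.36, adjusted p = 0.882).

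Acadm, the medium-chain enzyme, had 327, 226, 165, 240.2 and 106 FPKM in WT1, WT2, S7, S8 and S9 and 232, 111, 158, 241 and 214 FPKM in S10, S11, S12, TKO5 and TKO6. S1, S2 and S3 had 238, 114 and 113 FPKM, against 202 to 273 FPKM (median 230.4) in female KO. S1 stood within the female KO range and, as for Acadvl, S2 and S3 stood at less than its lower end, next to S9 and S11. The KO label gave -0.14 (SE 0.28) for male and 0.63 (SE 0.24, adjusted p = 0.224) for female labels, and the series difference was 0.41 (SE 0.21, adjusted p = 0.185). The female value was 1.04 without S1 and 0.057 without S2 and S3, and the male one ran from -0.37 (without S10) to 0.066 (without S8).

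The upstream windows of Acadm and Acadvl are shown with that of Cpt1a because each holds the 6-base motif AGGTCA, the half-site of many nuclear receptors, in capitals (TGACCT where it is on the other strand). All are RefSeq promoter sequence of GRCm38.p6 outside annotated exons, 5′ to 3′ on the strand of the gene: Acadm at chr3:153944644-153944893 (minus), Acadvl at chr11:70015429-70015678 (minus) and Cpt1a at chr19:3323051-3323284 (plus, within the annotated span of Cpt1a and before its RefSeq start).
Acadm: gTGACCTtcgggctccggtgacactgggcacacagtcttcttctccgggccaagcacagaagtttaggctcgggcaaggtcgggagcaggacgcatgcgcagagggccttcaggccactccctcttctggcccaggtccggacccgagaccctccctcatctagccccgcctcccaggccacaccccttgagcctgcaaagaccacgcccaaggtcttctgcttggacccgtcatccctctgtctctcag
Acadvl: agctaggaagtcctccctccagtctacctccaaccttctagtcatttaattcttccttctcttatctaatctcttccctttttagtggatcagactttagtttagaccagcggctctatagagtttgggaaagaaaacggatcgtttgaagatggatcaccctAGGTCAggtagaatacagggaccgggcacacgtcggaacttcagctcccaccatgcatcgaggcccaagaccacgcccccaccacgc
Cpt1a: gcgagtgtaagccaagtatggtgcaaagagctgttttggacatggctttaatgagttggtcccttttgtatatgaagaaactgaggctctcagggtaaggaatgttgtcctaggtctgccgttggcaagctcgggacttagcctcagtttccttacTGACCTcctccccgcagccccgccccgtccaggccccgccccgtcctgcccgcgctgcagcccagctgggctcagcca
Of the 28 members with a window of 250 bases before to 50 after a start, 5 held the motif on either strand (Acacb, Acadm, Acadvl, Cpt1a and Echs1). By window, the share was 17.24% of 29 against 16.26% of all 32851 windows. The longer motifs TCAAGGTCA and DR1, the direct repeat of AGGTCA with 1 free base between the copies, both contain AGGTCA and were in 0 member windows and in 0.42% and 0.04% of all windows. Acadm and Acadvl were low in S2, S3, S9 and S11 and Cpt1a was not, so members with these letters did not share 1 pattern across libraries.

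Acad9, an acyl-CoA dehydrogenase that also serves complex I assembly, had 3.05, 2.01, 2.45, 2.35 and 1.82 FPKM in WT1, WT2, S7, S8 and S9 and 2.34, 1.47, 1.59, 2.42 and 1.39 FPKM in S10, S11, S12, TKO5 and TKO6. It had 2.28, 1.01 and 1.47 FPKM in S1, S2 and S3 and 2.12 to 3.10 FPKM (median 2.62) in female KO, so that only S1 overlapped the latter. The differences were 0.64 (SE 0.24, adjusted p = 0.213) for female and -0.35 (SE 0.23) for male labels, and the female one was 0.97 without S1 and 0.17 without S2 and S3. Acad10 went the other way, with 0.418, 0.959, 0.543, 1.06 and 1.33 FPKM in WT1, WT2, S7, S8 and S9 and 0.908, 1.23, 1.50, 1.13 and 0.492 FPKM in S10, S11, S12, TKO5 and TKO6. S1, S2 and S3 had 1.04, 0.717 and 2.19 FPKM and female KO 0.571 to 1.10 FPKM (median 0.651). The female log2 fold change of -1.08 (SE 0.34, adjusted p = 0.171) was -0.55 without S3. Acadl, Acads and Acadsb, of long, short and branched short chains, had female differences of 0.27, 0.55 and 0.32 and male ones of -0.05, 0.08 and -0.21, and Acad11 had 0.43 and -0.06. The female values were 0.49, 0.87, 0.54 and 0.63 without S1, and -0.09, 0.06, -0.04 and 0.11 without S2 and S3. The male values of Acadl and Acad11 turned positive without S8, and that of Acads negative without S10. None of the 4 was called with all libraries and the filter on low counts, while for female labels Acads was called without the filter, and Acadl, Acads and Acadsb without S1.

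The trifunctional protein, which carries out the last 3 steps on long chains, is built from Hadha and Hadhb. The genes lie head to head on chromosome 5, Hadha from 30118304 to 30155162 on the minus strand and Hadhb from 30155248 to 30184593 on the plus strand, with RefSeq start sites 273 bases apart. The stretch between their outermost exons is shown since the pair shares it, 85 bases at chr5:30155163-30155247 on the plus strand, 69.4% G or C and without the motif AGGTCA.
Hadha to Hadhb: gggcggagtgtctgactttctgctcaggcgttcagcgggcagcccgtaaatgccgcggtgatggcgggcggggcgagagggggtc
Hadha had 193, 126, 102, 142 and 66.7 FPKM in WT1, WT2, S7, S8 and S9 and 133, 68.8, 87.8, 141 and 127 FPKM in S10, S11, S12, TKO5 and TKO6. S1, S2 and S3 had 154, 69.0 and 68.5 FPKM and the female KO libraries 126 to 170.0 FPKM (median 139). Hadhb ran beside it, from 102 (S2) to 269 FPKM (WT1). Both were low in S2, S3, S9 and S11, across 3 labelled groups. With the KO label, Hadha differed by -0.18 (SE 0.27) and Hadhb by -0.16 (SE 0.26) for male labels, and by 0.47 (SE 0.26) and 0.65 (SE 0.26, adjusted p = 0.236) for female labels. The female values were 0.92 and 1.12 without S1 and -0.15 and 0.0074 without S2 and S3, and the male ones turned to 0.016 and 0.046 without S8. The series differences were 0.46 (SE 0.20, adjusted p = 0.119) and 0.31 (SE 0.20).

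The other 5 genes of this role act on short and medium chains. They were Hadh (3-hydroxyacyl-CoA dehydrogenase), Echs1 (enoyl-CoA hydratase), Acaa2, Acat1 (acetoacetyl-CoA thiolase) and Hsd17b10, an X-linked dehydrogenase of branched chains. All 7 genes of the role had positive log2 fold changes for female labels, from 0.19 (Acaa2) to 0.65 (Hadhb), with 4 at an unadjusted p under 0.05 (7.15% of all genes were higher at that p) and 0 called. Without the filter on low counts Hadhb and Acat1 were called, and without S1 Hadha, Hadhb, Hadh, Echs1 and Acat1 were. Without S2 and S3 the log2 fold changes of 5 of 7 were negative, from -0.15 (Hadha) to -0.0042 (Hadh). For male labels 6 of 7 were negative (52.9% of all genes were), with a range of -0.19 to 0.05. Without S8, Hadha, Hadhb, Hadh, Echs1 and Hsd17b10 turned positive, at 0.016 to 0.072, while Acat1 was -0.036. Acat1 ranged from 71.8 (S2) to 178 FPKM (WT1), and Hsd17b10 was the flattest of the 5, from 81.5 (S11) to 119 FPKM (S6). The 4 auxiliary genes, Eci1, Eci2, Decr1 and Ech1, which handle double bonds of unsaturated chains, had log2 fold changes of -0.04 to 0.06 for male and 0.09 to 0.43 for female labels, with 2 of 4 at an unadjusted p under 0.05 for female labels (Eci1 and Decr1, where 7.15% of all genes were higher at that p) and 0 called in any comparison. Without S1 Eci1 (0.50) and Decr1 (0.74) were called for female labels, where 16.8% of all genes were. Without S2 and S3 these female differences were 0.06 for Eci1 and -0.06 for Decr1.

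**Figure D5:**
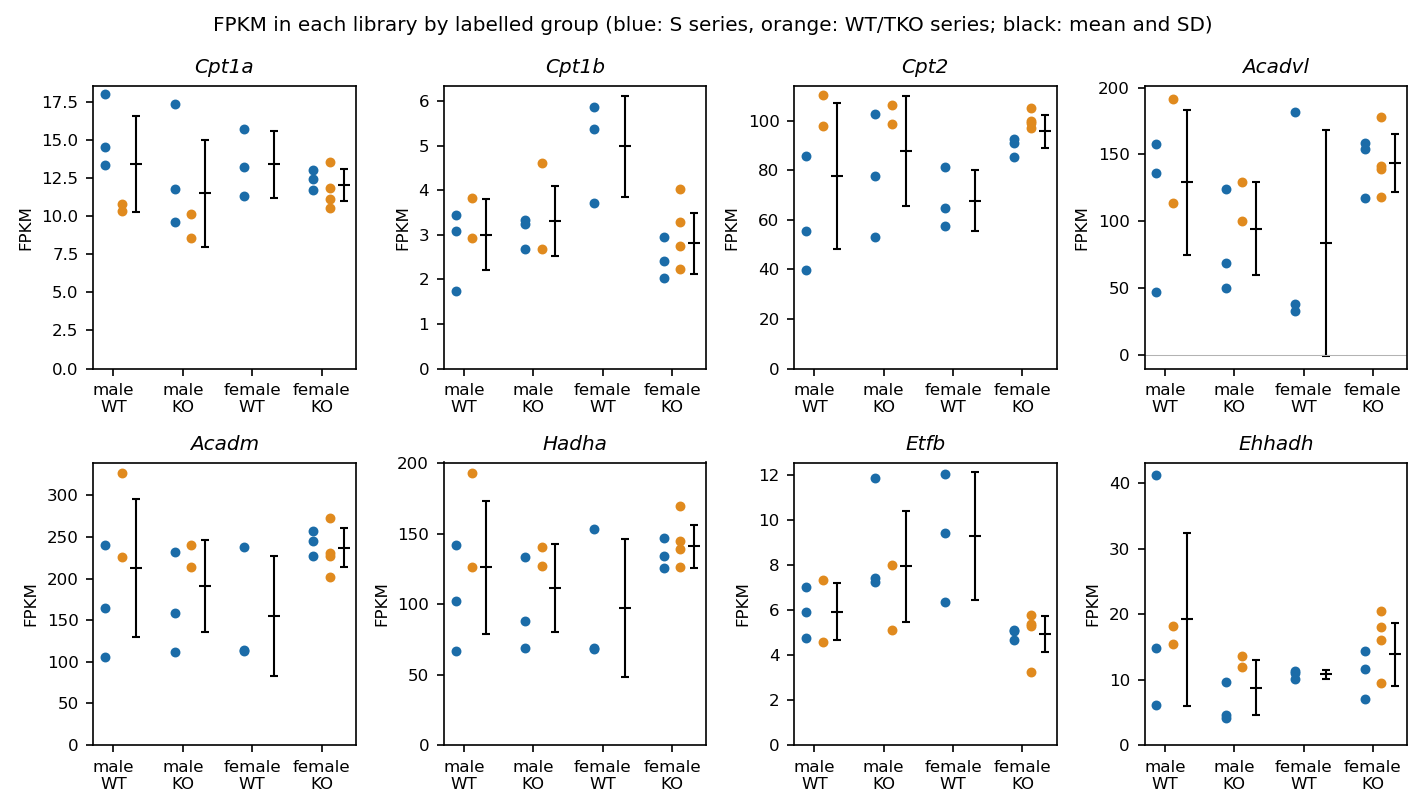
FPKM of 8 members in each library by labelled group (blue, S series; orange, WT/TKO series), with the group mean and SD in black. Within female WT, S1 lies near the female KO libraries for Acadvl, Acadm and Hadha while S2 and S3 lie lower, and for Ehhadh S7 lies alone at 41.3 FPKM.

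Electron transfer flavoprotein has an alpha chain (Etfa) and a beta chain (Etfb), and passes electrons to the dehydrogenase Etfdh. Etfa ranged from 161 (S2) to 406 FPKM (WT1) and Etfdh from 38.9 (S11) to 98.9 FPKM (WT1), both low in S2, S3, S9 and S11. Etfb did not follow them. It had 4.59, 7.35, 4.76, 5.94 and 7.04 FPKM in WT1, WT2, S7, S8 and S9 and 7.44, 11.9, 7.26, 5.14 and 8.02 FPKM in S10, S11, S12, TKO5 and TKO6. Its values of 6.39, 9.44 and 12.1 FPKM in S1, S2 and S3 were all above the female KO range of 3.26 to 5.78 FPKM (median 5.12), and S3 and S11, where its partners were low, were its highest libraries. For female labels Etfb differed by -0.93 (SE 0.25, adjusted p = 0.149) and Etfa by 0.59 (SE 0.24, adjusted p = 0.237), and for male labels by 0.42 (SE 0.22) and -0.21 (SE 0.21). The female values were -1.16 for Etfb and 1.02 for Etfa without S1, and -0.34 and -0.0080 without S2 and S3. The exon overlap of Etfb stands beside this contrast, and its part was not tested.

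Of the peroxisomal genes, Ehhadh was the most variable member. It had 18.1, 15.4, 41.3, 14.9 and 6.16 FPKM in WT1, WT2, S7, S8 and S9 and 9.65, 4.62, 4.19, 13.5 and 11.9 FPKM in S10, S11, S12, TKO5 and TKO6. S1, S2 and S3 had 11.3, 11.1 and 10.04 FPKM and female KO 7.03 to 20.5 FPKM (median 14.3). S7, the library with 1037 CPM of white adipocyte and 364 CPM of mesothelial markers, was highest and S12 lowest, and the male labels overlapped. The male log2 fold change was -1.19 (SE 0.47, adjusted p = 0.882), -0.62 without S7 alone, and -0.49 (SE 0.14, adjusted p = 0.986) without S7, S9, S11 and S12. Without the filter on low counts edgeR called it as lower. For female labels it was -0.02 (SE 0.28). Acox3, a branched-chain acyl-CoA oxidase, Hsd17b4, the D-bifunctional protein, and Acaa1a had log2 fold changes of 0.11, -0.19 and 0.08 for male and -0.31, 0.34 and -0.09 for female labels, none of them called with all libraries. For female labels Hsd17b4 was called without S1 (0.56) and was -0.02 without S2 and S3. With single libraries left out Acox3 ran from -0.53 to -0.11 for female labels, and for male labels it was -0.007 without S7.

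Genes around the pathway had no call with the KO label in edgeR with all libraries either. Of 20 regulators, among them Ppara and Ppargc1a, 0 were called for male or female labels (0.0% and 0.0551% of all genes), with medians of -0.15 (1 positive) and 0.10 (11 positive), where 52.9% of all genes were negative for male and 47.6% positive for female labels. With single libraries left out 1 to 4 regulators were positive for male labels, and without S2 and S3 6 were for female labels. Ppargc1a, the PGC-1 alpha coactivator, differed by -0.94 (SE 0.31, adjusted p = 0.882) for male and 0.83 (SE 0.27, adjusted p = 0.184) for female labels, Ppara by -0.82 (SE 0.28) for male and Esrrg by 0.71 (SE 0.23) for female labels. Among 40 other oxidation and ketone genes, of which 37 were tested for male and 36 for female labels, medians were -0.09 (7 positive) and 0.30 (28 positive), with 0 called. For male labels 17 of 37 were positive without S8, and for female labels 22 of 36 without S2 and S3. The 2 largest differences were Acaa1b (-0.90) and Acsl6 (-0.89) for male and Bdh1 (0.98), a ketone body dehydrogenase, and Acad12 (0.62) for female labels. Among 19 uptake and release genes, of which 18 were tested, medians were -0.11 (4 positive) and -0.01 (9 positive) with 0 called, and the largest differences were Acaca (-1.69, SE 0.77) and Gpam (-0.87) for male and Gpam (0.86) and Fabp4 (-0.67) for female labels. Of these 18, with single libraries left out, 3 to 8 were positive for male and 6 to 10 for female labels. Without S2 and S3, 6 were positive for female labels. Without S1, 7 regulators, 16 other oxidation and ketone genes and 7 uptake and release genes were called for female labels, where 16.8% of all genes were. Between the series, where edgeR called 14.7% of all genes, it called 2 of 20 regulators, 2 of 37 other oxidation and ketone genes and 1 of 18 uptake and release genes. Acaa1b (-2.13, SE 0.55, adjusted p = 0.0145, edgeR), Acsl5 (-0.54, adjusted p = 0.00236) and Ucp2 (-0.42, adjusted p = 0.0320) were lower in the WT/TKO libraries, and Ncor1 (0.32, adjusted p = 0.0198) and Med1 (0.25, adjusted p = 0.0122) were higher.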

How the data were processed

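Heart RNA of 20 mouse libraries was sequenced as poly(A)-selected 150 bp paired-end reads. The authors deposited whole-number read counts per Ensembl gene, without normalization, and FPKM computed from those counts and 1 length per gene. The submitters' processing notes name HISAT2, HTSeq 0.6.1p2, DESeq2 1.26.0 and the build GRCm38; whether counting used strand is not given in the sources used here. Groups came from the sample labels alone.

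Genes reaching 10 counts in 3 or more libraries were fitted in edgeR 4.0.16 (quasi-likelihood test, TMM scaling, Benjamini-Hochberg adjustment over all genes). Contrasts were KO against WT for male and for female labels with a term for the library series, over all 20 libraries, and by labelled sex, and the 2 series were compared with labelled group as covariate. The Cpt1b to Cpt1a ratio was tested by exact permutation. Alternatives were DESeq2 1.42.0, limma 3.58.1 on log2(FPKM + 1) and log2(FPKM + 0.1), other filters and scalings, covariates, subsets, and fits lacking 1 library each. The software was Python 3.11.15 with scipy 1.17.1, R 4.3.3 and, for plots, matplotlib 3.10.9. The 35 genes, the gene lists and the tests were chosen with earlier results of these data known. All members were reported, with values per library for any called member, for the 5 largest differences in each labelled sex and for Cpt1a, Cpt1b, Cpt2, Acadm and Hadha; from other lists, called genes or the 2 largest differences were named.

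Coordinates and exon overlaps are from GENCODE M21 (GRCm38), whose exon lengths were within 1% of the deposited ones for 34 of 35 members. Upstream sequences and motif counts are from RefSeq (GRCm38.p6), which gave a window for 28 members. On counts simulated from the real means, edgeR recovered 97.5% of 200 genes changed 4-fold for male labels and 91% for female labels. It recovered 99% for all 20 libraries and for the series, and 80% for the male minus female difference, with 5 to 11 false calls per comparison. No member differed by 4-fold in any comparison with all libraries, and the simulated counts held no shifts that many genes share in a library. Recovery of smaller differences, such as those of the members, was not tested. No 2 libraries of a group were identical, and the 44 pairs within groups differed by at least 10.4 in chi-square per degree of freedom.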

Additional observations from a re-analysis of the deposited data

Results flagged for a closer look

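In the groups of 5 or 7 libraries, 105 sets of values were checked for a library far from the others by the gap to its nearest neighbour (Dixon's 95% limit, applied to log2 of TMM-scaled CPM + 0.5), and 2 passed, where chance gives about 1 in 20. Both were in the libraries labelled female KO. Slc25a20 stood at 0.42 in S6 on the log2 scale, relative to its 20-library mean, above 0.074 to 0.21 in the other 6 libraries, with 53.3 FPKM against 42.8 to 48.5. Etfb stood at -0.79 in TKO2, below -0.38 to -0.15 in the others, with 3.26 FPKM against 4.69 to 5.78. On the FPKM scale the gaps were smaller relative to the range of the group.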

How the results depend on the processing

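Without a filter on low counts, called members were 1 for male labels (Ehhadh, lower), 12 for female labels and 2 for the male minus female difference, and DESeq2 called 4 for female labels. Between the series, upper-quartile scaling, leaving out S4 to S9, KO libraries alone, libraries labelled male alone, leaving out S7, S9, S11 and S12, and the atrial marker sum as covariate each called 0. The atrial covariate moved the series median to -0.18 and turned Cpt2 to -0.051 (adjusted p = 0.914), from 0.51. Without S2 and S3 the median moved to -0.057 for female labels and 0.15 for the difference. Members past the study's thresholds numbered 0 for male labels with WT/TKO libraries alone, with the Y-linked level as covariate and without S7, S9, S11 and S12. For female labels they numbered 15 by limma on log2(FPKM + 0.1), and 5 in 1 fit of all 20 libraries or with the atrial covariate.

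With single libraries left out, called members numbered 0 for male labels and for all 20 libraries, 0 to 25 for female labels (25 without S1), 0 to 2 for the series and 0 to 5 for the difference (5 without S1). Between the series, Ehhadh without S7 and Acacb without S8 were called beside Cpt2. Medians ran from -0.26 to 0.05 (male), 0.21 to 0.50 (female), -0.06 to 0.11 (all 20), 0.12 to 0.29 (series) and -0.54 to -0.11 (difference). Members past the study's thresholds ran from 0 to 3 (male; 0 without S7 and 3 without S9) and 2 to 20 (female; 2 without S3 and 20 without S1). The Cpt1b to Cpt1a difference ran from 0.15 to 0.57 (male), -1.01 to -0.77 (female) and 0.35 to 0.61 (series). The causes of these shifts were not tested. No paired analysis was possible because replicate numbers only name libraries in order and link none across groups. The part of read depth in the precision was not tested.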
